A study of Equus caballus with 8 samples.

Results

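Transcripts that mark T cells, natural killer (NK) cells and cytotoxic lymphocytes were followed in the endometrium of mares. The group was chosen as a fixed list of 35 genes, matched by symbol to horse NCBI Gene IDs, and 34 of the 35 were among the 24942 Gene IDs of the count table. Like the other lists below, it was chosen with earlier results of these data known. GZMM, a granzyme, matched no ID of the table and was not analysed here. All 34 had at least 10 counts in total over the libraries, and 31 of them passed the filter on low counts and were among the 15342 genes tested. NCR1, CD28 and CTLA4 stayed below that filter, with 48, 32 and 19 counts over the 8 libraries, and are given as values without a test.

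Endometrial biopsies came from 4 healthy Bavarian Warmblood mares, and the mare number ties each pair of biopsies. Each mare gave a pregnant biopsy, taken on Day 12 of pregnancy after ultrasound had shown an embryonic vesicle, and a cyclic biopsy, taken on Day 12 of the oestrous cycle. In both groups ovulation was induced with human chorionic gonadotropin and the uterus was flushed before the sample was taken, and all mares were inseminated from a single stallion, per the labels' protocols. Messenger RNA was sequenced in 4 cyclic and 4 pregnant libraries.

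Depth was 15.5 to 16.7 M counts in 7 libraries and 9.81 M in the pregnant library of mare 1. Levels are given as CPM, which scales each count to a common library size (library sizes adjusted by TMM, edgeR's trimmed mean of log ratios), and are not corrected for gene length, so they are compared between libraries and not between genes. A gene at 0 counts could still have up to 3 counts, which is 0.298 CPM in that shallow library and 0.169 to 0.193 CPM in the others. The biopsies held the transcripts of an epithelial tissue, with EPCAM at 538 ± 21.9 CPM in cyclic and 508 ± 43.7 CPM in pregnant libraries and the Müllerian factor PAX8 at 224 ± 35.0 CPM in cyclic and 212 ± 19.5 CPM in pregnant libraries (SD, n = 4 each). A biopsy mixes many cell types, so that fewer cells of a type and less RNA per cell cannot be told apart in any value below.

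T cells recognise antigen through a receptor whose signal is carried by the CD3 chains and the zeta chain CD247. The kinases LCK and ZAP70 relay that signal, and the co-receptors CD4 and CD8 bind class II and class I major histocompatibility molecules. NK cells and cytotoxic T cells kill by releasing perforin and granzymes, and both depend on cytokines that signal through the common gamma chain IL2RG. Lymphocytes are resident in the endometrium of mammals, where T cells lie in the epithelium and stroma, and NK cells are the best known uterine lymphocytes of early human and mouse pregnancy.

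The comparison of pregnancy with the cycle asked which of these transcripts differ in the same mare when a conceptus is present. Of the 31 genes tested, 8 rose in pregnancy and 0 fell, against 8.53% of all genes that rose and 8.19% that fell (edgeR's quasi-likelihood test with the mare as a block, Benjamini-Hochberg adjusted over all genes, adjusted p below 0.05). Over all genes 1309 of 2565 calls were rises, and 1416 of 2280 were when libraries were scaled by their totals alone. The 8 were CD3D, CD247, CD8B, ZAP70, SKAP1, GZMK, CCL5 and IL2RG, and their rises ran from 1.34-fold (IL2RG) to 1.85-fold (GZMK). CD4 and FOXP3, which mark helper and regulatory T cells, had log2 fold changes of 0.07 ± 0.12 and 0.10 ± 0.20 (SE) and did not pass. Fitted log2 fold changes were above 0 for 29 of 31 genes, beside 50.8% of all genes, and their median was 0.43, beside 0.00 for all genes tested. Genes enter the tested set partly through the group in which they are higher, so this median describes the genes and does not test them.

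These counts leaned on the pairing, on the tool and on single mares. Without the mare as a block 0 of the 31 passed in edgeR, with 389 genes called in all. With the block, CD3D, SKAP1, GZMK and CCL5 passed in DESeq2, and in limma-voom CD8B passed as well. Leaving out mare 2 left SKAP1 and CCL5 and a median of 0.20, and leaving out mare 1 or mare 4 left SKAP1, GZMK and CCL5. Without mare 3, 7 genes passed: 6 of those called with all mares, and LCK.

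**Figure D1:**
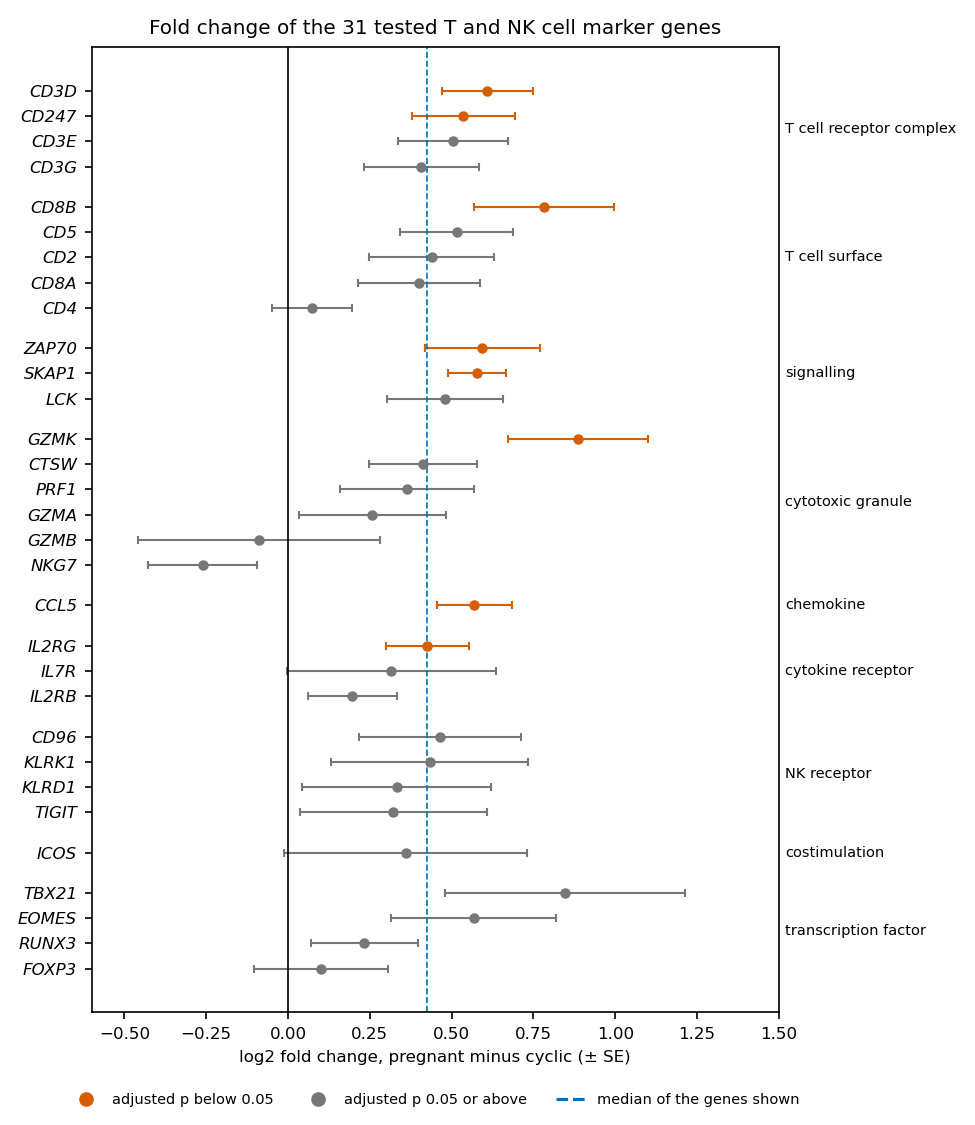
Log2 fold changes (pregnant minus cyclic, horizontal axis) of the 31 tested T and NK cell marker genes, grouped by role, with bars for ± SE from the fit with the mare as a block over 8 libraries. Orange points are the 8 genes with adjusted p below 0.05, all to the right of 0, and the dashed line is the median of 0.43. GZMB and NKG7 are the 2 genes to the left of 0.

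Within the T cell receptor complex, CD3D and CD247 rose and CD3E and CD3G did not pass. CD3D, the CD3 delta chain, had 8.63, 4.52, 5.65 and 5.27 CPM in the cyclic libraries of mares 1 to 4 and 11.5, 8.38, 7.48 and 8.82 CPM in their pregnant libraries. CD247, the zeta chain that carries the signal into the cell, had 8.24, 5.34, 5.52 and 5.08 CPM in cyclic libraries and 10.5, 10.6, 6.30 and 7.70 CPM in pregnant libraries in the same order of mares. Each mare was higher in pregnancy for both genes, yet the groups overlapped, because the cyclic library of mare 1 lay above the lowest pregnant library. The log2 fold change was 0.61 ± 0.14 for CD3D (adjusted p = 0.0165) and 0.54 ± 0.16 for CD247 (adjusted p = 0.0457).

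CD3E, the epsilon chain, had 6.18, 4.40, 4.16 and 4.15 CPM in cyclic libraries and 6.56, 7.99, 6.64 and 5.39 CPM in pregnant libraries. It too was higher in 4 of 4 mares, with overlap of the groups through mare 1, and its log2 fold change of 0.50 ± 0.17 missed the threshold (adjusted p = 0.0715). CD3G, the gamma chain, had 2.99 ± 0.646 CPM in cyclic and 3.94 ± 0.672 CPM in pregnant libraries (SD, n = 4 each) and a log2 fold change of 0.41 ± 0.18 (adjusted p = 0.152). All 4 chains were thus higher in each of the 4 mares, a pattern that 19.2% of all genes showed. The call of CD3D was lost without mare 1, 2 or 4 (adjusted p 0.0539, 0.0600 and 0.0595), and that of CD247 in the same 3 cases (0.108, 0.172 and 0.115).

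Among the surface molecules of T cells, CD8B rose while CD8A, CD2, CD5 and CD4 did not pass. CD8B, the beta chain found on conventional cytotoxic T cells, had 2.58, 1.19, 1.55 and 2.11 CPM in the cyclic and 3.98, 3.03, 2.42 and 3.20 CPM in the pregnant libraries of mares 1 to 4. Its log2 fold change was 0.78 ± 0.21 (adjusted p = 0.0354), and the call was lost in each fit that left out 1 mare (adjusted p 0.0688 to 0.116). CD8A, the alpha chain that NK cells of some species also carry, had 9.47, 5.03, 6.64 and 6.32 CPM in cyclic libraries and 10.6, 10.8, 6.30 and 8.41 CPM in pregnant libraries.

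CD8A was higher in 3 of 4 mares, by most in mare 2, with a log2 fold change of 0.40 ± 0.19 (adjusted p = 0.184). CD5, an inhibitory receptor of T cells, had 3.86, 3.20, 3.79 and 3.90 CPM in cyclic libraries and 5.07, 6.12, 5.34 and 4.62 CPM in pregnant libraries. Each pregnant library of CD5 lay above each cyclic one, as for 6.00% of all genes (4.73% had each pregnant library below each cyclic one), but the test over all genes was not passed (log2 fold change 0.52 ± 0.17, adjusted p = 0.0728). CD2, an adhesion molecule of T and NK cells, had 8.44 ± 2.49 CPM in cyclic and 11.2 ± 1.84 CPM in pregnant libraries (SD, n = 4 each; adjusted p = 0.160). It was higher in 4 of 4 mares, but hardly so in mares 1 and 4 (log2 ratios 0.01, 1.16, 0.51 and 0.07 in mares 1 to 4).

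CD4, the co-receptor of helper T cells that macrophages of some species also express, had nearly the same mean in both states. It had 29.0, 14.3, 19.1 and 26.8 CPM in the cyclic libraries of mares 1 to 4 and 28.2, 20.9, 19.2 and 23.3 CPM in the pregnant ones. Mares 2 and 3 were higher and mares 1 and 4 lower in pregnancy, and the group means of 22.3 ± 6.80 and 22.9 ± 3.91 CPM (SD, n = 4) lay within the spread of either group. The log2 fold change of 0.07 ± 0.12 did not pass (adjusted p = 0.735) and had the opposite sign without mare 2 (-0.09).

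The signalling genes rose in 2 of 3 cases. SKAP1, an adaptor that links the T cell receptor to integrin adhesion, had 82.9, 51.4, 78.5 and 32.3 CPM in cyclic libraries and 110.1, 86.2, 101 and 56.8 CPM in pregnant libraries in mares 1 to 4. Every mare was higher in pregnancy, although the mares differed so much that the pregnant library of mare 4 lay below the cyclic libraries of mares 1 and 3. Averaged over both states, mares 1 to 4 deviated from the mean log2 CPM of SKAP1 by 0.44, -0.08, 0.34 and -0.71. The same deviations were 0.46, -0.23, -0.15 and -0.08 for CD3D and 0.40, 0.06, -0.25 and -0.20 for LCK. Which cells of the biopsies carried SKAP1 was not tested. SKAP1 had the smallest p of the 31 (log2 fold change 0.58 ± 0.09, adjusted p = 0.00302), and its call held in each fit that left out 1 mare (adjusted p 0.00622 to 0.0155) but not without the mare block (0.425).

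ZAP70, the kinase that docks on the phosphorylated CD3 and zeta chains, had 7.08, 3.96, 4.35 and 3.22 CPM in cyclic libraries and 9.05, 8.19, 5.01 and 5.57 CPM in pregnant libraries. It was higher in 4 of 4 mares, with overlapping groups, and rose with a log2 fold change of 0.59 ± 0.18 (adjusted p = 0.0476). Without mare 1, 2 or 4 the adjusted p of ZAP70 was 0.103, 0.181 and 0.129. LCK, the kinase bound to CD4 and CD8 that phosphorylates those chains, had 9.47, 5.78, 6.95 and 5.82 CPM in cyclic libraries and 12.1, 12.2, 6.64 and 8.47 CPM in pregnant libraries. LCK was higher in mares 1, 2 and 4 and lower in mare 3, and did not pass (log2 fold change 0.48 ± 0.18, adjusted p = 0.0996), though it passed without mare 3 (adjusted p = 0.0457).

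**Figure D2:**
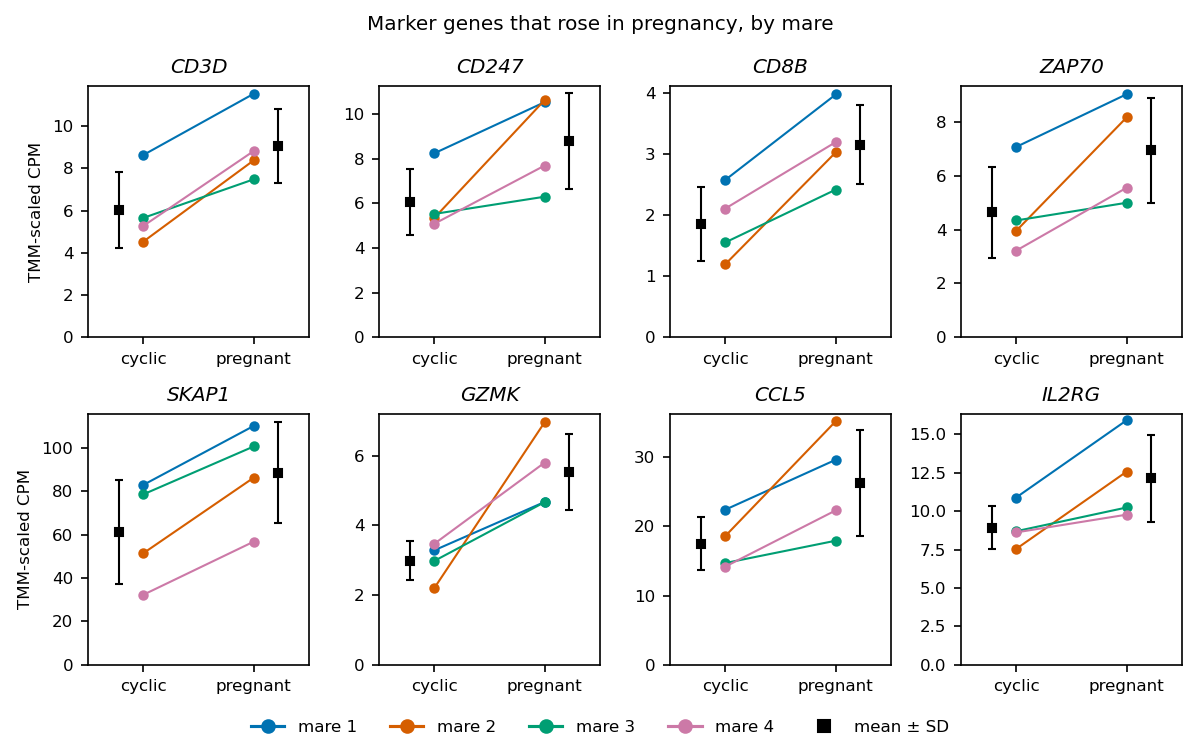
TMM-scaled CPM (vertical axis, from 0) of the 8 marker genes with adjusted p below 0.05 in the cyclic and pregnant library of each mare, joined by a line per mare, with the group mean ± SD (n = 4) as black squares. All 32 lines slope upward, and GZMK is the only 1 of the 8 whose groups do not overlap.

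Among the genes of cytotoxic granules, 1 of 6 rose. GZMK, a granzyme of memory-type CD8 T cells in human tissue, had 3.28, 2.20, 2.98 and 3.47 CPM in the cyclic libraries of mares 1 to 4 and 4.67, 6.96, 4.67 and 5.80 CPM in the pregnant ones. No pregnant library reached down to a cyclic one, and mare 2 went from the lowest to the highest value of its group. The log2 fold change of 0.89 ± 0.21 was the largest of the 31 (adjusted p = 0.0210), and without mare 2 it was 0.63 (adjusted p = 0.0679).

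The other granule genes did not pass. GZMB, the granzyme that starts apoptosis in target cells, had 3.73, 4.65, 3.66 and 2.48 CPM in cyclic libraries and 3.68, 6.32, 1.07 and 3.79 CPM in pregnant libraries. Mares 2 and 4 were higher and mares 1 and 3 lower in pregnancy, and mare 3 fell to less than any other library (19 counts). The log2 fold change of GZMB was -0.09 ± 0.37 (adjusted p = 0.906) and 0.35 without mare 3 (the direction rests on that mare). Its value is uncertain, since related granzyme genes may share reads with it.

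GZMA, a granzyme with tryptase activity, had 3.46 ± 0.698 CPM in cyclic and 4.27 ± 1.88 CPM in pregnant libraries (SD, n = 4 each). PRF1, the pore-forming perforin, had 8.26 ± 3.96 CPM in cyclic and 10.4 ± 3.33 CPM in pregnant libraries, and CTSW, a cathepsin of NK and cytotoxic T cells, had 28.9 ± 8.52 CPM in cyclic and 38.9 ± 12.7 CPM in pregnant libraries. In all 3, mare 2 was highest or close to highest in pregnancy, and mare 1 was highest in the cycle. Their log2 fold changes were 0.26 ± 0.22, 0.36 ± 0.21 and 0.41 ± 0.16 (adjusted p 0.484, 0.274 and 0.145). NKG7, a membrane protein of the granules, was lower in 3 of 4 mares, at 8.42 ± 1.77 CPM in cyclic and 6.99 ± 0.806 CPM in pregnant libraries (log2 fold change -0.26 ± 0.17, adjusted p = 0.324).

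CCL5, a chemokine made by activated T and NK cells that attracts T cells and monocytes, rose. It had 22.4, 18.6, 14.7 and 14.2 CPM in the cyclic and 29.6, 35.2, 17.9 and 22.3 CPM in the pregnant libraries of mares 1 to 4. Each mare was higher in pregnancy, and the groups overlapped because mares 3 and 4 in pregnancy stayed below mare 1 in the cycle. The log2 fold change was 0.57 ± 0.11 (adjusted p = 0.00967), and the call held in each fit that left out 1 mare (adjusted p 0.0134 to 0.0404) and was lost without the mare block (0.205).

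Of the cytokine receptors, IL2RG rose and IL2RB and IL7R did not pass. IL2RG, the gamma chain shared by the receptors of IL2, IL7 and IL15, had 10.9, 7.54, 8.69 and 8.61 CPM in cyclic libraries and 15.9, 12.6, 10.2 and 9.77 CPM in pregnant libraries. It was higher in 4 of 4 mares, with the cyclic library of mare 1 above the pregnant libraries of mares 3 and 4. The log2 fold change of 0.43 ± 0.13 was close to the threshold (adjusted p = 0.0482) and missed it in each fit that left out 1 mare (adjusted p 0.0532 to 0.193). IL2RB, the beta chain for IL2 and IL15, had 11.7 ± 1.81 CPM in cyclic and 13.6 ± 2.92 CPM in pregnant libraries (SD, n = 4 each; adjusted p = 0.367), and IL7R, a survival receptor of resting T cells, had 1.04 ± 0.342 CPM in cyclic and 1.29 ± 0.409 CPM in pregnant libraries on 11 to 28 counts per library (adjusted p = 0.553).

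None of the 4 tested receptors of NK cells passed in edgeR, at an adjusted p from 0.239 to 0.493. The count was also 0 at an unadjusted p under 0.05, and 0 passed in DESeq2 or limma-voom. CD96, a receptor of T and NK cells for nectin-like ligands and the one with the highest CPM, had 3.16, 1.63, 1.30 and 3.04 CPM in cyclic libraries and 3.98, 3.61, 2.14 and 2.61 CPM in pregnant libraries. It was higher in mares 1, 2 and 3 and lower in mare 4 (log2 fold change 0.46 ± 0.25, adjusted p = 0.239). TIGIT, an inhibitory receptor that competes for the same kind of ligands, had 1.26 ± 0.618 CPM in cyclic and 1.54 ± 0.482 CPM in pregnant libraries (SD, n = 4 each).

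KLRD1, the CD94 chain of lectin-like receptors, had 1.67 ± 0.646 CPM in cyclic and 2.07 ± 0.696 CPM in pregnant libraries, and KLRK1, the activating receptor NKG2D, had 1.60 ± 0.408 CPM in cyclic and 2.14 ± 0.658 CPM in pregnant libraries (SD, n = 4 each). Both belong to a receptor family in which related genes may share reads, so their values are uncertain. NCR1, the natural cytotoxicity receptor NKp46 that defines NK cells in many mammals, had 8, 6, 4 and 12 counts in the cyclic and 4, 7, 1 and 6 counts in the pregnant libraries of mares 1 to 4. NCR1 was therefore detected in each library but was too low to be tested.

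The costimulatory genes were sparse. ICOS, an inducible costimulator of T cells, had 1.74, 0.754, 0.993 and 0.558 CPM in cyclic libraries and 0.895, 1.55, 1.12 and 1.30 CPM in pregnant libraries, on 9 to 27 counts per library. Mare 1 was lower and mares 2 to 4 were higher in pregnancy (log2 fold change 0.36 ± 0.37, adjusted p = 0.560). CD28, the main costimulatory receptor, had 0 to 8 counts and CTLA4, its inhibitory relative, 0 to 5 counts per library, so that no difference was detectable at this depth.

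The 4 lineage transcription factors did not pass either, and 2 of them, TBX21 and EOMES, had an unadjusted p under 0.05. RUNX3, which drives the CD8 programme and was the one with the highest CPM, had 8.69, 6.09, 7.32 and 8.18 CPM in cyclic libraries and 9.94, 9.99, 5.96 and 10.1 CPM in pregnant libraries. Mare 3 was lower and the others were higher in pregnancy (log2 fold change 0.23 ± 0.16, adjusted p = 0.375). TBX21, the T-bet factor of type 1 and cytotoxic lymphocytes, had 0.928 ± 0.347 CPM in cyclic and 1.67 ± 0.613 CPM in pregnant libraries (SD, n = 4 each) and was higher in 4 of 4 mares, with a log2 ratio of 2.10 in mare 2 and 0.10 to 0.55 in the others (adjusted p = 0.153). EOMES, its relative in NK and memory CD8 cells, had 2.87 ± 1.23 CPM in cyclic and 4.17 ± 1.20 CPM in pregnant libraries (log2 fold change 0.57 ± 0.25, adjusted p = 0.162).

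FOXP3, the factor of regulatory T cells, had 1.74, 1.89, 2.73 and 2.42 CPM in the cyclic and 1.89, 2.45, 2.87 and 2.19 CPM in the pregnant libraries of mares 1 to 4. The groups overlapped almost wholly, mares 1 to 3 were slightly higher and mare 4 lower in pregnancy, and the log2 fold change was 0.10 ± 0.20 (adjusted p = 0.786). Regulatory T cells restrain immune responses and have been linked to tolerance of pregnancy in mice and humans.

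The order of the mares is described here. The mares named were picked after the values had been seen, while each share of all genes is for that same mare. The genes of a library are also not independent, so these counts are descriptions. Mare 1 had the highest cyclic library for 26 of the 31 genes, beside 23.7% of all genes, and mare 2 the lowest for 17, beside 25.3%. In pregnancy mare 2 had the highest library for 19 genes (28.2% of all genes) and mare 3 the lowest for 22 (25.8% of all genes). The median of the 31 within-mare log2 ratios was 0.99 in mare 2, 0.40 in mare 4, 0.19 in mare 3 and 0.17 in mare 1. Mare 2 had the largest of the 4 ratios for 27 of 31 genes, beside 27.9% of all genes, and was higher in pregnancy for 31 of 31 (51.1% of all genes).

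In mare 4, 26 genes were higher in pregnancy (51.0% of all genes), and in mares 1 and 3 there were 21 each (50.4% and 48.3% of all genes). Among the 31, the lowest log2 ratio in mare 3 was that of GZMB at -1.66, and in mare 4 that of NKG7 at -0.74. Each mare has a single pair of libraries, so whether the mares differ in their change was not testable.

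**Figure D3:**
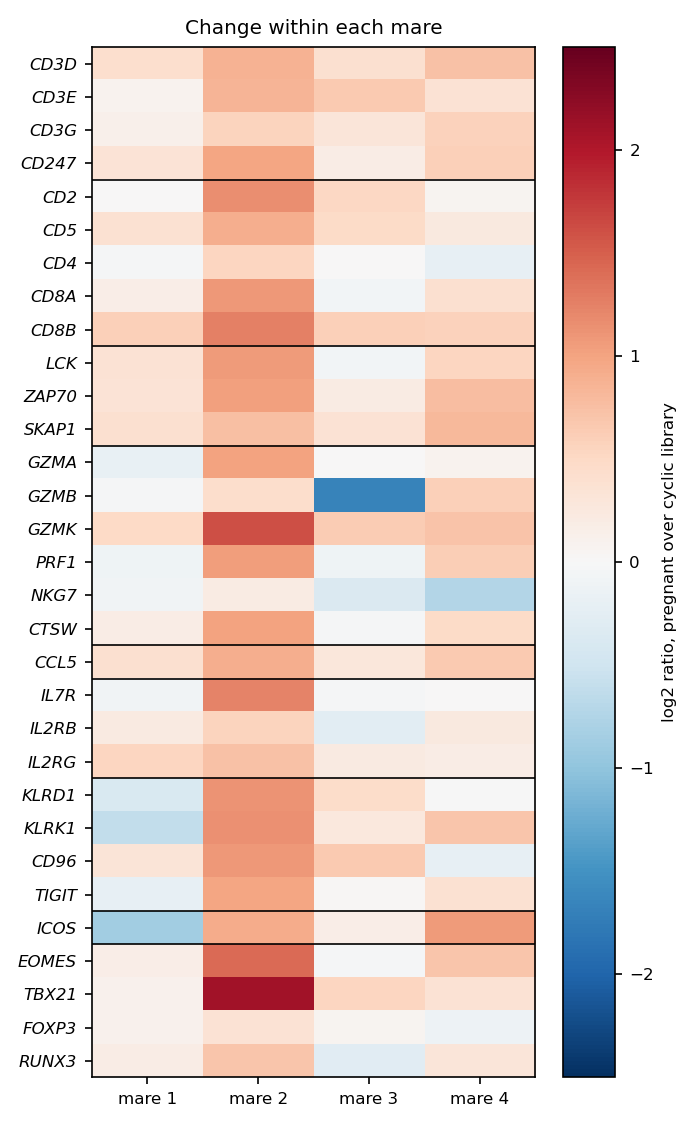
Log2 ratio of the pregnant over the cyclic library (colour) for each of the 31 tested genes (rows, black lines between roles) in each mare (columns), from log2 CPM with a prior count of 2. The column of mare 2 is red throughout, and the darkest blue cell is GZMB in mare 3 at -1.66.

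Levels averaged over both states were compared between mares in the same fit. Of the 31 genes, 2 differed between mares, beside 15.9% of all genes: SKAP1 (adjusted p = 0.00224) and CCL5 (adjusted p = 0.0316). SKAP1 ran over a range of 1.15 on the log2 scale from mare 4, the lowest, to mare 1, the highest, with mare 3 close to mare 1. CCL5 was higher in mares 1 and 2 than in mares 3 and 4, over a range of 0.66. CD4 was next by p (adjusted p = 0.0513), highest in mare 1 and lowest in mare 2. For 24 of the 31, mare 1 had the highest mean of the 4, beside 24.9% of all genes. That mare too was picked after the values had been seen.

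**Figure D4:**
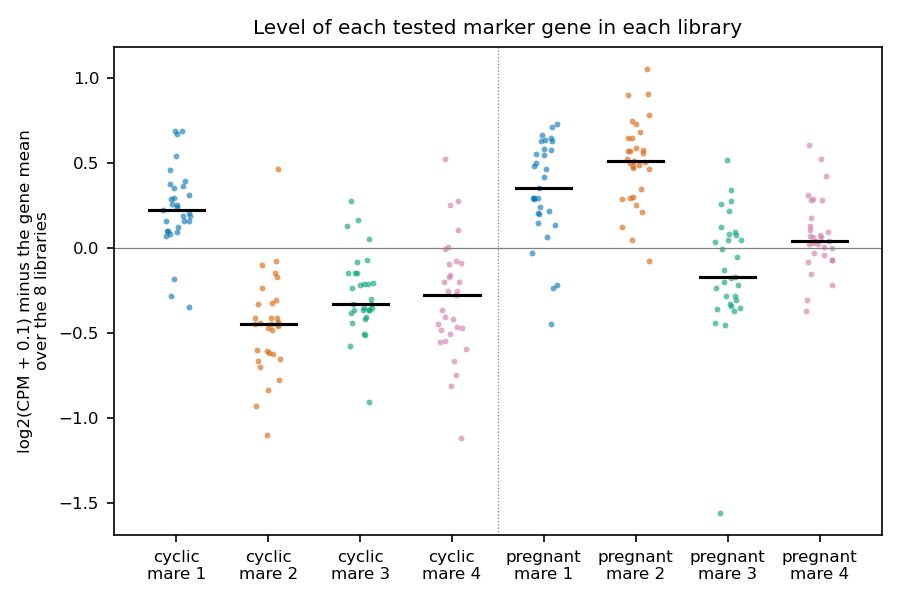
Level of each of the 31 tested genes in each library (vertical axis, log2(CPM + 0.1) minus the mean of the gene over 8 libraries), coloured by mare, with the median as a black line. The cyclic library of mare 1 stands above the other 3 cyclic libraries, mare 2 moves from the lowest median in the cycle to the highest in pregnancy, and the low point of pregnant mare 3 is GZMB.

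Ratios of 2 genes within a library do not depend on its scaling. The pairs were picked after the values had been seen, and with 4 mares an exact sign-flip test cannot go below p = 0.125, so they are descriptions. The count of CD4 was 2.85 to 4.24 times that of CD8A in the cyclic libraries and 1.93 to 3.05 times in the pregnant ones, and was lower in pregnancy in 3 of 4 mares. CD8A per CD8B was 3.00 to 4.28 in the cycle and 2.60 to 3.57 in pregnancy, lower in 4 of 4 mares. GZMB per GZMK was 0.714 to 2.11 and 0.229 to 0.907, also lower in 4 of 4. FOXP3 per CD3E was 0.281 to 0.657 in the cycle and 0.288 to 0.432 in pregnancy, lower in 3 of 4 mares.

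PTPRC, the CD45 phosphatase carried by white blood cells of all lineages, served as a measure of leukocytes as a whole. It had 24.5, 14.3, 19.6 and 17.7 CPM in the cyclic and 24.1, 27.1, 16.5 and 20.3 CPM in the pregnant libraries of mares 1 to 4, with mares 2 and 4 higher and mares 1 and 3 lower in pregnancy (log2 fold change 0.21 ± 0.18, adjusted p = 0.492). CD3D per PTPRC was 0.289 to 0.353 in the cycle and 0.309 to 0.479 in pregnancy, higher in mares 1, 3 and 4 and slightly lower in mare 2. CCL5 per PTPRC was 0.752 to 1.30 and 1.09 to 1.30, again higher in 3 of 4 mares. CD4 per PTPRC was 0.975 to 1.51 and 0.772 to 1.17, lower in 3 of 4, and NKG7 per PTPRC was 0.326 to 0.619 and 0.290 to 0.372, lower in 4 of 4.

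Other genes of T cell receptor signalling were listed alongside. Of 30, 27 were tested, 3 rose and 1 fell, with a median log2 fold change of 0.30. The shares of all genes to set beside this list and each list below are 8.53% that rose and 8.19% that fell. FYN, a kinase related to LCK, rose from 19.3 ± 2.97 to 29.0 ± 2.45 CPM (SD, n = 4 each; adjusted p = 0.0135), and CD27, a costimulatory receptor of T cells, rose 1.64-fold (adjusted p = 0.0327). NFATC2, a calcium-driven transcription factor, rose 1.28-fold (adjusted p = 0.0319), and LEF1, a Wnt effector of T cells and many tissues, fell (log2 fold change -0.59 ± 0.06, adjusted p = 0.000752). Leaving out 1 mare ended the call of CD27 in each case (adjusted p 0.0577 to 0.119), that of NFATC2 without mare 1, 2 or 4 (up to 0.147) and that of FYN without mare 2 (0.0688). FYN, NFATC2 and LEF1 are widely expressed outside lymphocytes.

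Of 25 further NK and cytotoxic genes, 16 were tested and 0 passed in the main edgeR fit (4 at an unadjusted p under 0.05). Their median log2 fold change was 0.32. In DESeq2 0 passed and in limma-voom 1. In edgeR 1 rose with scaling by totals, with either other filter and without mare 3. HCST, of this list, was higher in 4 of 4 mares (log2 fold change 0.56 ± 0.17, adjusted p = 0.0516), and 15 of the 16 were fitted above 0. Those with the highest CPM were SRGN, the granule proteoglycan serglycin, at 35.4 ± 13.9 CPM in cyclic and 40.5 ± 6.94 CPM in pregnant libraries, and ITGAE, the CD103 integrin of intraepithelial T cells, at 15.7 ± 6.33 CPM in cyclic and 19.3 ± 6.15 CPM in pregnant libraries (SD, n = 4 each; adjusted p 0.281 and 0.0851).

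Of 24 ligands that act on T and NK cells, 13 were tested, 2 rose and 0 fell. CXCL16, the ligand of CXCR6, had 19.1, 14.5, 17.4 and 17.5 CPM in cyclic libraries and 30.3, 25.2, 21.5 and 23.2 CPM in pregnant libraries in mares 1 to 4, and CXCL12, the ligand of CXCR4, had 100.3, 113, 85.7 and 109 CPM in cyclic and 188, 165, 147 and 142 CPM in pregnant libraries. For both genes each pregnant library lay above each cyclic one, and the log2 fold changes were 0.54 ± 0.11 (adjusted p = 0.00799) and 0.65 ± 0.09 (adjusted p = 0.00190). Without mare 1 the adjusted p of CXCL16 was 0.0521. IL2 and IL21, growth factors made by T cells, had 0 counts in each library.

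Of 17 homing receptors, 13 were tested, 2 rose and 0 fell. CXCR4, the receptor of CXCL12, had 6.89, 5.91, 13.0 and 2.97 CPM in cyclic libraries and 10.0, 9.99, 17.7 and 8.999 CPM in pregnant libraries, higher in 4 of 4 mares with mare 3 above the rest in both states (log2 fold change 0.79 ± 0.18, adjusted p = 0.0185). S1PR1, which guides lymphocytes out of tissue and is also a receptor of endothelium, had 12.0, 12.6, 12.6 and 11.0 CPM in cyclic and 20.4, 24.8, 21.8 and 22.2 CPM in pregnant libraries, with no overlap of the groups (log2 fold change 0.89 ± 0.09, adjusted p = 0.000643). Without mare 1 or mare 2 the adjusted p of CXCR4 was 0.0536 and 0.0725. The other 11 did not pass.

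Of 23 effector and checkpoint genes, 12 were tested, 1 rose and 1 fell. TNFRSF18, the GITR receptor of regulatory and activated T cells, had 0.580, 0.440, 1.06 and 0.682 CPM in cyclic libraries and 3.28, 7.61, 2.14 and 3.26 CPM in pregnant libraries, without overlap (log2 fold change 2.42 ± 0.44, adjusted p = 0.00889, and 0.0600 without mare 1). IKZF2, the Helios factor found in regulatory T cells and in other tissues, was lower in 4 of 4 mares at 25.4, 23.6, 21.2 and 11.2 CPM in cyclic and 14.4, 11.9, 8.15 and 6.22 CPM in pregnant libraries (log2 fold change -1.01 ± 0.12, adjusted p = 0.000897). IFNG and IL17A, the signature cytokines of type 1 and type 17 T cells, had 0 counts in each of the 8 libraries, and IL4 had 2 counts in all.

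Markers of other cells are given beside these values. The summed level of the 34 T and NK genes was 211 to 336 CPM in the cyclic and 278 to 397 CPM in the pregnant libraries. Without SKAP1, which had the most counts of the tested marker genes (9084), it was 159.8 to 253 and 186 to 298 CPM. Of 13 pan-leukocyte genes 2 rose, ARHGDIB and CYTIP, and 1 fell, PTPN6 (median log2 fold change 0.23, summed level 355 to 445 and 416 to 446 CPM). Without mare 1 the adjusted p was 0.0605 for ARHGDIB and 0.0662 for CYTIP. In mare 2 the pan-leukocyte median log2 ratio was 0.72, above the 0.06 to 0.20 of the other mares.

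Of 12 B and plasma cell genes 6 were tested and 2 rose, CD79A and BLK, with summed levels of 35.9 to 103 CPM in cyclic libraries and 68.4 to 101 CPM in pregnancy. The call of BLK was lost without mare 2, 3 or 4 (adjusted p 0.109, 0.0517 and 0.0618), and without mare 1 BLK was not tested. The call of CD79A held in each fit that left out 1 mare (adjusted p 0.0241 to 0.0449). At a minimum count of 25, or in libraries thinned to the smallest, 0 genes of this list rose. That count does not tell a gene that missed the threshold from a gene dropped by the filter. Of 18 macrophage and dendritic genes 16 were tested and 1 rose, CD14, and the summed levels of 188 to 291 and 224 to 301 CPM overlapped. Of 11 granulocyte and mast cell genes with an ID 7 were tested and 0 passed in edgeR (0 at an unadjusted p under 0.05, and 0 in DESeq2 or limma-voom), with CPA3 and MPO at 1 count each in all libraries together and sums of 58.8 to 292 and 49.4 to 256 CPM. The erythrocyte genes ALAS2 and SLC4A1 had 0 counts in each library.

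Endothelial genes rose in 10 of 12 cases, among them CLDN5, CDH5, PECAM1 and EGFL7, at a median log2 fold change of 0.87 and summed levels of 697 to 1365 and 1069.9 to 1578 CPM. Of 9 stromal genes tested 5 rose, led by DPT, PDGFRB, DCN and FBLN1 (median 0.38, sums 3599 to 5012 and 4102 to 4913 CPM). Of 10 epithelial genes tested MUC1 rose and KRT7 and KRT18 fell (median -0.08, sums 1902 to 2221 and 1808 to 1992 CPM). Calls lost when 1 mare was left out were those of FBLN1 (without mare 1, 2 or 3, adjusted p up to 0.111), THY1, the fifth stromal gene that rose (without mare 1 or 4, 0.193 and 0.112), KRT18 (without mare 1, 2 or 4, up to 0.129) and MUC1 (without mare 4, 0.0861). In mare 2 the endothelial median log2 ratio was 0.68, below that of mare 1 at 1.11, while the T and NK median was the highest of the 4 in mare 2. Mare 2 was also highest for the B and plasma (0.93), macrophage and dendritic (0.42) and granulocyte and mast cell lists (0.40). It was lowest for the stromal list (0.22). The part that the makeup of the biopsies plays in the T and NK values was not tested.

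**Figure D5:**
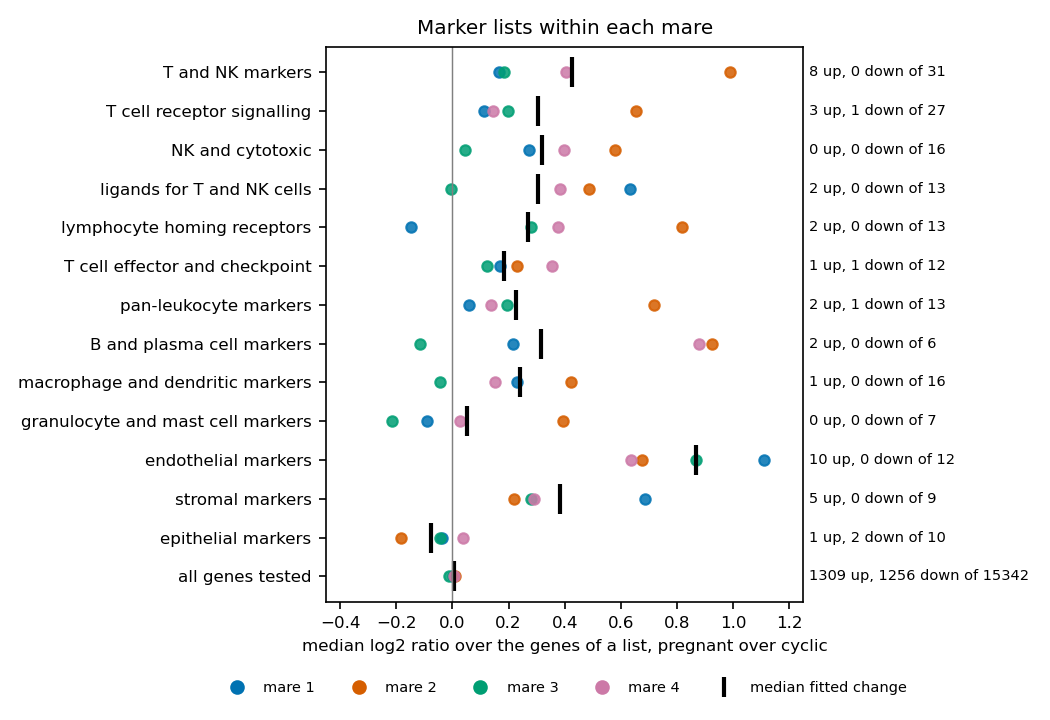
Median over the tested genes of each list (rows) of the log2 ratio of the pregnant over the cyclic library, with 1 point per mare and a black bar for the median of the fitted log2 fold changes. At the right stand the numbers of genes with adjusted p below 0.05 in each direction, and the T and NK markers of mare 2 lie at 0.99, beside values of all genes tested close to 0.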

How the data were processed

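Poly(A) RNA of 8 endometrial biopsies was made into libraries with Illumina's mRNA-Seq sample preparation kit, per the labels' protocols. That kit does not mark strand, so reads of overlapping antisense genes cannot be told apart. The authors deposited whole-number read counts per NCBI Gene ID, made after trimming with Trimmomatic 0.32.2 and alignment with HISAT2 2.0.3, per the submitters' processing notes. For the counting tool, the genome build and the annotation, the processing is "not given in the sources used here". A scaled signal table of 14037 genes was deposited as well. Its values lay within 1e-06 of TMM-scaled CPM recomputed from the counts (100% of values), and its genes were those over 2 CPM in at least 2 libraries. It holds 27 of the tested marker genes and served for this check only.

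Symbols came from a RefSeq gene table (TB-T2T assembly), which matched 21420 of 24942 IDs (85.9%). The marker genes and all other lists were chosen with earlier results of these data known. Genes passing edgeR's filterByExpr at a minimum count of 10 were tested with edgeR 4.0.16 in R 4.3.3 (glmQLFit, robust, TMM scaling), with the mare as a block and Benjamini-Hochberg adjustment over all 15342 genes. The SE is the absolute log2 fold change divided by the square root of F. Ratios within a mare used log2 CPM with a prior count of 2. The fit was run on simulated data with planted changes larger than any called among the marker genes. That run does not cover changes of their size. Alternatives were DESeq2 1.42.0, limma-voom (limma 3.58.1), other scalings, other filters (minimum count 25, or none), libraries thinned to the smallest, no block, and leaving out each mare.

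The mare number pairs the samples, since the design takes both biopsies from every mare. Deviations from the group means correlated at 0.38 to 0.54 within a mare and at most at -0.02 between mares. Taking deviations from the group means pulls the values between mares below 0 when those within a mare are above 0. The negative values between mares are therefore no separate evidence of the pairing. No libraries were duplicates (lowest chi-square per degree of freedom 24.6). Named were all marker genes with 10 or more counts in total, up to 4 called genes with the smallest p of each other list or, with none called, up to 2 with the highest CPM, plus PTPRC. EPCAM and PAX8, HCST, IL4, CPA3, MPO and THY1, and the genes listed at 0, were added after their values were seen. Reads carry no molecular identifiers, so limits from 0 counts cover counting error only. 1 marker gene of another cell type, and the summed level of its list, are not reported here.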

Additional observations from a re-analysis of the deposited data

Results flagged for a closer look

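In 7 of the 68 groups of 4 libraries examined (34 marker genes in each of the 2 states), 1 library stood apart from the other 3 by more than Dixon's 95% limit (gap over range 0.829), where chance gives 1 in 20, or 3.4 groups. The genes share the same libraries, so the groups are not independent and 7 cannot be judged against 3.4. In the cycle the library of mare 1 was high for 5 genes. CD3E was at 6.18 CPM beside 4.15 to 4.40 CPM in the other mares. CD247 was at 8.24 CPM beside 5.08 to 5.52 CPM, PRF1 at 14.2 CPM beside 5.76 to 6.83 CPM, KLRD1 at 2.64 CPM beside 1.32 to 1.37 CPM and TIGIT at 2.19 CPM beside 0.930 to 0.993 CPM. The cyclic library of mare 2 was low for CD5, at 3.20 CPM beside 3.79 to 3.90 CPM. In pregnancy the library of mare 3 was low for RUNX3, at 5.96 CPM beside 9.94 to 10.1 CPM. Of these 7 values, that of CD247 belongs to a gene that rose, and without mare 1 its adjusted p was 0.108 (edgeR).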

How the results depend on the processing

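The mare block moved the counts most: with no replicate block 389 genes and 0 of the T and NK genes passed, beside 2565 and 8 with the pairing. DESeq2 called 4 of the 31 and limma-voom 5, and the other scalings, filters and thinning 6 to 9. CD247, ZAP70 and IL2RG passed in neither DESeq2 (adjusted p 0.0917, 0.0932 and 0.118) nor limma-voom (0.0543, 0.0579 and 0.0596). CD8B passed in limma-voom (0.0416) and not in DESeq2 (0.110). Leaving out 1 mare gave 1266 to 2057 genes and 2 to 7 of the 31. The number differing between mares was 2, with 5 in DESeq2, 1 in limma-voom and 1 to 6 with 1 mare left out. The median log2 fold change stayed above 0 in each alternative, at 0.20 to 0.53 with 1 mare left out. Over all alternatives, 324 of 368 values of single genes kept their direction and side of the threshold, 36 lost the call, 3 gained one and 5 changed sign. The 5 were CD4 (-0.0867 to 0.170 with 1 mare left out), GZMA (-0.0400 to 0.399) and IL7R (-0.0493 to 0.454), each below 0 without mare 2, and GZMB without the block (0.0275) and without mare 3 (-0.324 to 0.347 over the mares left out). The gains were CD3E with scaling by totals (adjusted p = 0.0492), LCK without mare 3 and TBX21 in thinned libraries. The cause was not tested. Depth limits the genes with few counts, and 4 mares limit all p-values.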
